A study of Mus musculus with 9 samples.

Results

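The late phase of transcription arrest, from 2.5 to 5 h after actinomycin D was added to C2C12 cells, a mouse myoblast line, was measured with 6 of the study's 9 arrays. The arrays were chosen by their time labels, 3 at 2.5 h and 3 at 5 h, and paired by siRNA. The cells of the 3 pairs had been given a control siRNA, an siRNA against Cugbp1 (an RNA-binding protein, current gene symbol Celf1) or an siRNA against Mbnl1 (another RNA-binding protein). A pair is called an arm here, and 3 values in a row are always in the order control, Cugbp1 and Mbnl1 siRNA. Cells of all 6 late-phase arrays had been under 5 ug/ml actinomycin D for 2.5 or 5 h, with no drug-free array at those times, and the 3 arrays at 0 h were used only where the late phase was set against the first 2.5 h. Each siRNA and time had 1 array, and nothing in the labels says which arrays came from separate cultures. The p-values therefore measure a late change against a variance that joins its own spread between arms with a value pooled over all genes. The arms also differ in siRNA, and with so few arrays the precision is limited.

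Actinomycin D binds DNA and blocks the RNA polymerases, so that an RNA made before the block is no longer replaced and is lost at its own rate. mRNAs of immediate early genes and of many signalling regulators are known to be short-lived, often through AU-rich elements that recruit deadenylases. mRNAs of metabolic enzymes, ribosomal proteins and the contractile apparatus are known to last long. The arrays had been brought to a common distribution, so any change is measured against the rest of the RNAs: a positive value can be a gain or a smaller loss than that of the rest. In bulk RNA, fewer cells and less RNA per cell cannot be told apart. All levels are log2 intensity, and all changes are differences of log2 intensity. The SE given with a change is limma's moderated SE for the 3 arms. Its variance is in part pooled over all genes, so it is not the plain spread of the 3 arm values.

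The labelled cell type was checked first. Of 9 measured myoblast markers, 7 lay above the intensity filter of 7.385, including Myod1, Myf5, Cdh15, Des and Pax7, while Msc and Myog lay below it. The median of the myoblast markers ranged from 9.82 to 10.48 over the arrays at 2.5 h and from 9.30 to 10.12 at 5 h. None of 8 endothelial markers lay above the filter, and their medians ranged from 6.07 to 6.30 over the 6 arrays, which shows where genes of an absent cell type sit on this scale. Above the filter were 7 of 13 fibroblast markers, among them Col1a1 and Pdgfra, with medians from 7.96 to 8.66. So were 3 of 10 adipocyte markers, 2 of 10 of osteoblasts and chondrocytes and 2 of 13 of macrophages and leukocytes, and in each of these 3 lists the median was at most 6.73. Of the markers of other cell types that were tested, only Sox9 changed in the late phase; it fell. Celf1 was at 11.74, 9.56 and 11.13 at 2.5 h and 11.73, 9.52 and 11.03 at 5 h, lowest in the Cugbp1 arm, and Mbnl1 at 12.50, 12.42 and 10.05 at 2.5 h and 12.44, 12.43 and 9.79 at 5 h, lowest in the Mbnl1 arm, so both knockdowns were present through the late phase. The median intensity of the 6 arrays lay between 106.9 and 113, and the correlation of any pair of them across probe sets between 0.99 and 0.995.

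Across the 9864 genes tested, losses in the late phase outnumbered gains. At a limma adjusted p under 0.05 over all genes tested, 1806 genes (18.3%) were lower at 5 h than at 2.5 h and 465 genes (4.71%) were higher. The falls were larger than the rises, with a median of −0.29 among the genes that fell and 0.17 among those that rose. A fall of more than 1, which is a loss of over 50% relative to the rest, was called for 3 genes (Cited2, Nufip1 and Cdc42ep2), and no called rise reached that size. Falls beyond 0.5 were called for 204 genes and a rise beyond 0.5 for 1, Egr1. Most genes moved little, with a median change of −0.0016 and percentiles 5 and 95 at −0.38 and 0.15. The median size of the change without regard to sign was 0.08, against 0.13 in the first 2.5 h. All 2271 called genes went the same way in the 3 arms, as did 59.66% of all genes tested. A call depends in part on arms that agree, so this is no separate support for the calls. The numbers of calls rest on every arm: without the control arm, 907 genes were called lower and 64 higher, without the Cugbp1 arm 1412 and 134, and without the Mbnl1 arm 1305 and 155. Of the 1806 falls, 895, 1306 and 1247 were called again in these 3 fits, and of the 465 rises 49, 107 and 118. When the arrays were rescaled to equal medians of the cytosolic ribosomal protein mRNAs, the median of all genes moved by −0.11, 3476 genes were called lower and 19 higher, and the share of calls that were rises went from 20.48% to 0.544%. The rescaling lowered the late change of every gene by the same amount, so a fall could only become larger on that scale. All 1806 falls were called again there. All 465 rises stayed above 0, but only 19 of them were still called higher.

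The largest called fall was that of Cited2, a co-regulator that competes with hypoxia-inducible factors for their coactivators. It was at 10.27, 10.15 and 10.73 at 2.5 h and 8.87, 9.12 and 9.67 at 5 h. All 3 arrays at 5 h were below all 3 at 2.5 h, and the change was −1.17 ± 0.08 (SE, n = 3 arms, limma adjusted p = 0.00107), a 2.24-fold loss. Expressed as 2.5 h divided by the log2 loss, that is an apparent half-time of 2.15 h relative to the rest of the transcripts. Nufip1, a nuclear RNA-binding protein that helps assemble small nucleolar ribonucleoproteins, was at 10.12, 10.24 and 10.05 at 2.5 h and 8.82, 9.34 and 8.85 at 5 h, a change of −1.13 ± 0.08 (adjusted p = 0.00107) and an apparent half-time of 2.21 h. The loss of Nufip1 was smallest in the Cugbp1 arm, and the times did not overlap. Cdc42ep2 and Cdc42ep3 encode effectors of the small GTPase Cdc42. Cdc42ep2 was at 9.09, 9.13 and 9.29 at 2.5 h and 8.10, 8.19 and 8.18 at 5 h, with losses of nearly one size in the arms (−1.01 ± 0.04, adjusted p = 0.000892). Cdc42ep3 was at 9.47, 9.08 and 9.32 at 2.5 h and 8.44, 8.43 and 8.29 at 5 h, and its arrays did not overlap between times either (−0.90 ± 0.08, adjusted p = 0.00173). Cdca5 (sororin), which holds sister chromatids together, was at 8.93, 8.94 and 8.57 at 2.5 h and 7.93, 8.06 and 7.50 at 5 h and changed by −0.99 ± 0.05 (adjusted p = 0.000899).

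The other 10 of the 15 largest falls lay between −0.96 and −0.82. They included Gper1, a membrane receptor for oestrogen (−0.96), and Mrtfa, an actin-sensing coactivator of serum response factor (−0.90). Mrtfa was at 9.59, 9.52 and 9.81 at 2.5 h and 8.72, 8.63 and 8.87 at 5 h, and its losses of −0.87, −0.90 and −0.95 lay close together. Id2, which sequesters E proteins and so blocks myogenic and other helix-loop-helix factors, was at 10.03, 10.20 and 9.20 at 2.5 h and 8.95, 9.20 and 8.61 at 5 h. It fell by 1.08, 1.01 and 0.59 in the 3 arms, least under Mbnl1 siRNA, for a change of −0.89 ± 0.09 (limma adjusted p = 0.00249). Map3k11, a kinase upstream of JNK, fell by 0.88, and Nup62, a protein of the central nuclear pore channel, by 0.87. Bcor, a co-repressor of BCL6, fell by 0.86 to a 5 h mean of 7.08, and Mphosph10, a protein of the small-subunit processome, by 0.84 to a 5 h mean of 7.32. Both of these means lie under the filter value, so the losses may be understated; 88 of the 1806 falls ended under it. Pdcd4, an inhibitor of the helicase eIF4A, fell by 0.85, and Nab2, a co-repressor of Egr factors, by 0.82. Rhob, an endosomal GTPase, had the widest spread of the 15 falls. Its level was 8.57, 9.27 and 9.94 at 2.5 h and 8.05, 8.56 and 8.67 at 5 h, so the arrays of the 2 times overlapped across arms, and the losses of −0.52, −0.71 and −1.26 gave −0.83 ± 0.13 (adjusted p = 0.00894). All 15 falls were called without each arm in turn.

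**Figure D1:**
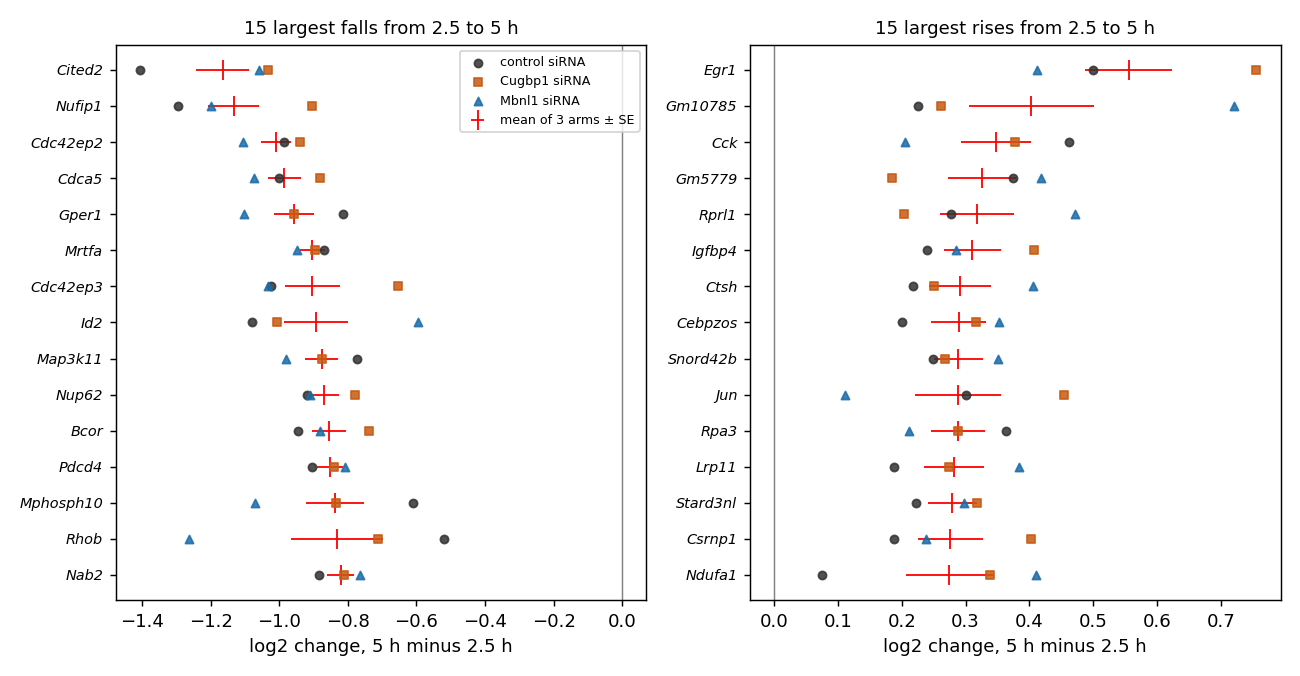
The 15 largest called falls (left) and 15 largest called rises (right) from 2.5 to 5 h, as the log2 change in each siRNA arm (1 array per siRNA and time) with the mean of 3 arms ± limma's moderated SE in red. All points of a gene lie on the same side of 0 because only genes with the same sign in each arm were taken. The x axes differ: the falls reach −1.41 in the control arm for Cited2, while the rises stay below 0.76. On the scale of equal ribosomal protein medians all of these rises stay above 0, and 12 of the 15 were still called.

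Rises were small and fewer. Egr1, a zinc finger transcription factor of the immediate early response, was at 7.65, 7.40 and 7.23 at 2.5 h and 8.14, 8.16 and 7.64 at 5 h. It rose in each arm, by 0.50, 0.76 and 0.41, and the highest array at 2.5 h (control) just overlapped with the lowest at 5 h (Mbnl1). The change was 0.56 ± 0.07 (SE, n = 3 arms, limma adjusted p = 0.00386), and 0.45 after the shift to equal ribosomal protein medians (adjusted p = 0.000261). Cck, the gene of the peptide hormone cholecystokinin, was at 8.04, 8.01 and 8.04 at 2.5 h and 8.50, 8.38 and 8.24 at 5 h (0.35 ± 0.06, adjusted p = 0.00881, and 0.05 without the control arm, where the rise was largest). Igfbp4, a binding protein of insulin-like growth factors, was at 7.62, 7.23 and 7.78 at 2.5 h and 7.86, 7.63 and 8.07 at 5 h and rose by 0.24, 0.41 and 0.29 (0.31 ± 0.04, adjusted p = 0.00629). Ctsh, a lysosomal cysteine protease, rose by 0.29, and Rpa3, the smallest subunit of the single-strand DNA-binding protein RPA, by 0.29. Cebpzos rose by 0.29, Stard3nl, which links endosomes to the endoplasmic reticulum, by 0.28, and Lrp11 by 0.28. Ndufa1, a subunit of respiratory complex I, rose by 0.07, 0.34 and 0.41; its call was lost without the Cugbp1 arm (adjusted p = 0.127) and without the Mbnl1 arm (0.122).

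Among the 15 rises were RNAs that are not mRNAs or whose probe sets name predicted genes. The small nucleolar RNA Snord42b was at 8.27, 8.38 and 8.37 at 2.5 h and 8.52, 8.65 and 8.72 at 5 h and rose by 0.29, with no overlap between the times. Rprl1, a gene related to the RNA component of RNase P, rose by 0.32, and the predicted genes Gm10785 and Gm5779 rose by 0.40 and 0.33. These 3 were not called without the control arm (adjusted p = 0.0567, 0.0567 and 0.0627), nor was Gm10785 without the Cugbp1 arm (0.0514). Gm10785 rose by 0.23, 0.26 and 0.72, most under Mbnl1 siRNA.

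Some genes turned: they fell in the first 2.5 h and were higher again at 5 h. There were 11 genes that fell early and rose late in all 3 arms, with both the late rise and the difference between the phases past the test. Egr1 had dropped from 9.19, 9.15 and 8.85 at 0 h, with changes of −1.54, −1.74 and −1.62, before its late rise. The contrast of the late change minus the early change, fitted on all 9 arrays, was 2.19 ± 0.11 for Egr1 (limma adjusted p = 6.44e-05). Jun, a subunit of the AP-1 transcription factor, was at 11.30, 11.26 and 11.19 at 0 h, 9.34, 9.28 and 9.54 at 2.5 h and 9.64, 9.74 and 9.66 at 5 h. Every array at 5 h lay above every array at 2.5 h and far below every array at 0 h. Its late change was 0.29 ± 0.07 (adjusted p = 0.0292), with 0.12 without the control arm and 0.0899 without the Cugbp1 arm, and 0.0696 with equal ribosomal protein medians; the late minus early contrast was 2.15 ± 0.12 (adjusted p = 7.59e-05). Csrnp1, a nuclear protein of the immediate early class, was at 8.85, 8.70 and 9.07 at 0 h, 7.32, 7.30 and 7.64 at 2.5 h and 7.51, 7.71 and 7.88 at 5 h and rose late by 0.28 ± 0.05 (adjusted p = 0.0139, and 0.0548 with equal ribosomal protein medians). By 5 h the level of each of these genes, relative to the rest of the RNAs, had come back in part. It was still below the 0 h level in every arm. Whether RNA was gained or only lost more slowly than the rest was not tested.

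The other 8 genes of this kind were singled out after their values were seen. Gadd45g, a stress-response protein that activates p38 and JNK kinases, was at 9.07, 9.26 and 9.05 at 0 h, 7.18, 7.56 and 7.30 at 2.5 h and 7.40, 7.73 and 7.72 at 5 h; its 2.5 h mean of 7.35 lay under the filter value. Its late change was 0.27 ± 0.06 (limma adjusted p = 0.0213, 0.0735 without the control arm, 0.0442 with equal ribosomal protein medians). Zfp217, a zinc finger protein of co-repressor complexes, was at 8.56, 8.41 and 8.64 at 0 h, 7.32, 7.35 and 7.31 at 2.5 h and 7.62, 7.58 and 7.56 at 5 h, with a mean of 7.33 at 2.5 h, also under the filter value. It rose by 0.26 ± 0.04 (adjusted p = 0.00541, 0.0462 with equal ribosomal protein medians), and its arrays did not overlap between 2.5 and 5 h. The remaining 6 rose by 0.15 to 0.24: the Polycomb protein Cbx2, the translation initiation helicase Eif4a2, the histone H4c9, the orphan nuclear receptor Nr4a2 and the small nucleolar RNAs Snora23 and Snord16a. None of these 6 was called higher on the scale of equal ribosomal protein medians (adjusted p from 0.129 to 0.548), where the contrast of Nr4a2 was not called either (adjusted p = 0.102). Each of them lost its call without 2 or more of the arms in turn, with adjusted p up to 0.124.

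Promoter sequences of a pair of the genes that fell and then rose are shown to set them beside each other, as the 250 bases before the start of the gene, from RefSeq (GRCm38.p6), 5′ to 3′ on the gene's strand. Capitals mark every match to 4 searched motifs on either strand: AP-1 (TGANTCA), a CRE-like element (TGANNTCA), the GC box (GGGCGG) and the E-box (CACGTG).
Jun, chr4:95052223-95052472, minus strand: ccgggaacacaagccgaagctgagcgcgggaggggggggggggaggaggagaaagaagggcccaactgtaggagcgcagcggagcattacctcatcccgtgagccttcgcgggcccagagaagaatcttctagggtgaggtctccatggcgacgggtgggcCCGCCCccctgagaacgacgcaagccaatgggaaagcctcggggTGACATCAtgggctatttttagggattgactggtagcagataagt
Gadd45g, chr13:51846425-51846674, plus strand: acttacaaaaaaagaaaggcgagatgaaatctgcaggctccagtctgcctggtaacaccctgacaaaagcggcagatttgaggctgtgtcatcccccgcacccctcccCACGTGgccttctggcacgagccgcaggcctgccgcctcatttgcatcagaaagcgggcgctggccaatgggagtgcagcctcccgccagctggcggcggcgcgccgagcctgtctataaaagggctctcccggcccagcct
Jun had the CRE-like match TGACATCA at 45 to 38 bases before the start and a GC box on the other strand, CCGCCC, at 89 to 84 bases. Gadd45g had 1 match, the E-box, at 142 to 137 bases. Over 32851 RefSeq promoter windows of the same source, 6.75% held the AP-1 letters, 11.9% the CRE-like letters, 32.7% a GC box and 6.02% the E-box. The pair shared none of the 4 motifs. A match describes letters only and says nothing of binding.

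**Figure D2:**
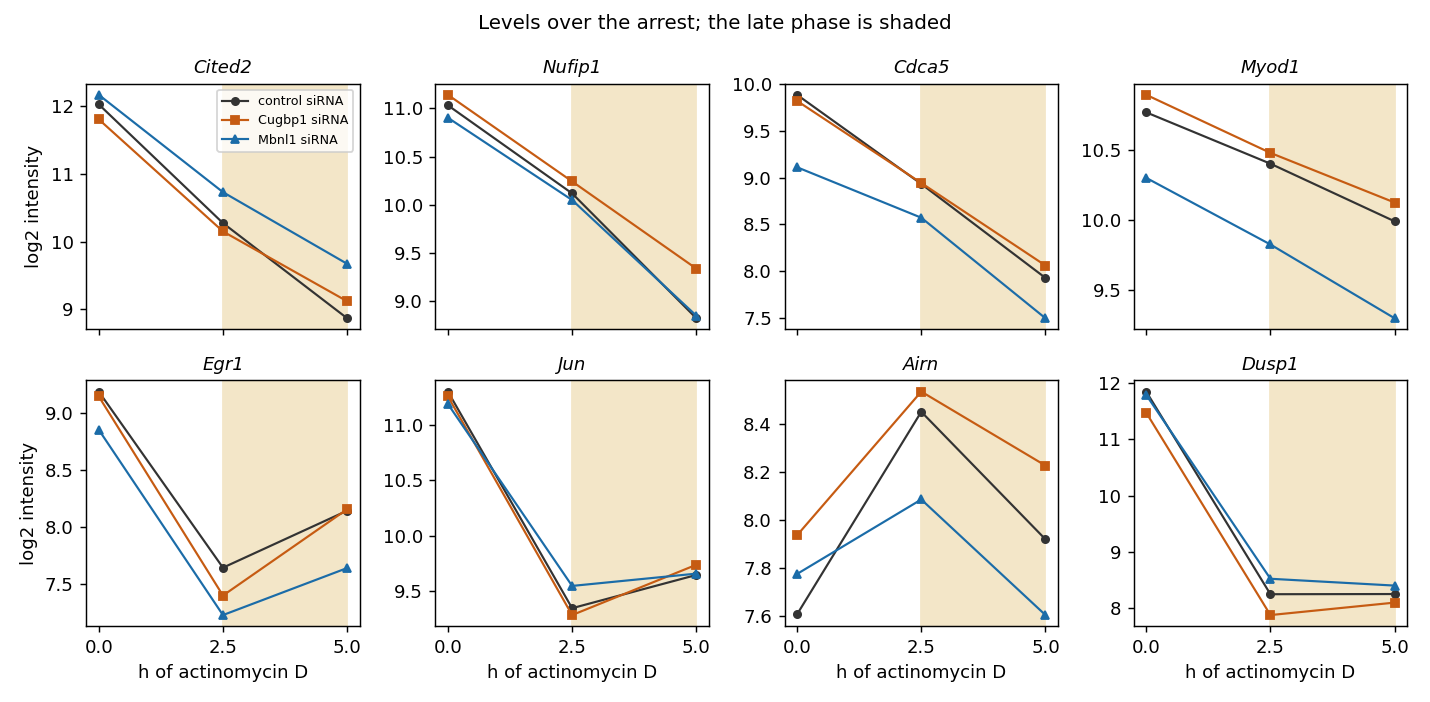
Log2 intensity at 0, 2.5 and 5 h of actinomycin D in the 3 siRNA arms (1 array per point) for 8 genes, with the late phase shaded and a separate y axis per gene. Cited2, Nufip1, Cdca5 and Myod1 fell in both phases, Egr1 and Jun fell and then rose, Airn rose and then fell, and Dusp1 changed by −3.48 early and by 0.03 late.

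The reverse course, a higher value at 2.5 h than at 0 h and a lower one at 5 h in all 3 arms, with the late fall and the late minus early contrast past the test, was seen for 14 genes. Over all genes tested 54 contrasts were negative and called, but only 3, 10 and 33 without the control, Cugbp1 and Mbnl1 arms. At most 3 of the 14 genes could therefore keep the call of their contrast without the control arm. The early rise taken alone was called for 13 of them and not for Luc7l3 (early change 0.12, limma adjusted p = 0.131). With equal ribosomal protein medians the contrast was no longer called for 7 of the 14. On that scale the early rises were smaller as well. The late change and the contrast of Luc7l3 were nearly equal there (−0.4635 and −0.4611), which leaves no early rise. Those of Xist (−0.2912 and −0.3308) leave a small one. Airn, a long nuclear antisense RNA of the imprinted Igf2r locus, was at 7.61, 7.94 and 7.78 at 0 h, 8.45, 8.54 and 8.09 at 2.5 h and 7.92, 8.23 and 7.61 at 5 h. Each arm went up and then down, and at 5 h the control and Cugbp1 arms were still above their 0 h levels while the Mbnl1 arm was below its own. The late change was −0.44 ± 0.05 (limma adjusted p = 0.00339) and the late minus early contrast −1.02 ± 0.17 (adjusted p = 0.0117). Xist, the long noncoding RNA that coats the inactive X chromosome, was at 12.37, 12.37 and 12.19 at 0 h, 12.56, 12.46 and 12.40 at 2.5 h and 12.37, 12.37 and 12.12 at 5 h. It fell late by 0.18 (adjusted p = 0.0389, 0.152 without the control arm and 0.12 without the Mbnl1 arm). Its late minus early contrast of −0.35 ± 0.08 had an adjusted p of 0.0389, and of 0.138 with equal ribosomal protein medians. Gm7265, a predicted gene, started at 7.30, 7.21 and 7.25, gained 0.72, 0.73 and 0.75 early and changed by −0.35, −0.20 and −0.64 late; its fall was not called without the control arm (adjusted p = 0.0751). The probe set of Ifnz, an interferon gene, was at 8.41, 8.20 and 8.53 at 0 h and 9.20, 9.18 and 9.03 at 2.5 h and then fell by 0.18, which was not called without the control arm (0.163) or the Cugbp1 arm (0.152).

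The other 10 genes of this course were again singled out after their values were seen, and all encode proteins. With equal ribosomal protein medians the contrast passed for 4 of them (Acbd6, Bclaf3, Cwc27 and Taf1d) and not for Igsf5, Khdc4, Luc7l3, Rbm26, Scn7a and Vti1a (adjusted p from 0.0616 to 0.129). Taf1d, a subunit of the RNA polymerase I factor SL1, was at 11.01, 11.26 and 11.21 at 0 h, 11.20, 11.46 and 11.69 at 2.5 h and 10.72, 11.23 and 11.31 at 5 h. It had risen by 0.29 and fell late by 0.48, 0.23 and 0.38 (limma adjusted p = 0.00706), and each array at 5 h lay below that of its own arm at 2.5 h. Luc7l3, a splicing factor with an arginine-serine-rich domain, was at 10.21, 10.21 and 10.14 at 0 h, 10.32, 10.31 and 10.30 at 2.5 h and 9.85, 10.13 and 9.88 at 5 h and fell late by 0.36 (adjusted p = 0.0116, 0.0652 without the control arm and 0.0521 without the Mbnl1 arm). The RNA-binding proteins Khdc4 and Rbm26 fell by 0.19 and 0.17, and the spliceosomal isomerase Cwc27 by 0.23; each lost its call without 2 or more of the arms in turn. Acbd6, Bclaf3, Igsf5, the sodium channel Scn7a and the SNARE protein Vti1a fell by 0.14 to 0.19, and each of these 5 lost its call without at least 2 of the arms in turn.

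Whether the late phase differed from the first 2.5 h, an equal span, was tested with the late minus early contrast on all 9 arrays. A positive value means less loss, or more gain, in the late phase. The contrast was positive and called for 463 genes (4.69%) and negative and called for 54 (0.547%). Without the control arm these counts were 201 and 3, without the Cugbp1 arm 267 and 10, and without the Mbnl1 arm 418 and 33. Both phases share the 2.5 h arrays, so an error in those arrays enters the 2 changes with opposite sign; its part in the counts was not tested.

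The largest positive contrasts belonged to mRNAs that were lost early and then changed little. Dusp1, a phosphatase that switches off MAP kinases, was at 11.84, 11.47 and 11.79 at 0 h, 8.25, 7.88 and 8.52 at 2.5 h and 8.25, 8.10 and 8.40 at 5 h. Its early changes were −3.60, −3.59 and −3.26 and its late changes 0.00, 0.22 and −0.12, a contrast of 3.52 ± 0.13 (limma adjusted p = 4.71e-05). The late change of 0.03 ± 0.07 was not called (adjusted p = 0.729). Dusp6, an ERK phosphatase, changed by −2.42 early and by 0.18 ± 0.07 late (adjusted p = 0.101). Myc, the growth-promoting transcription factor, was at 11.02, 11.02 and 11.04 at 0 h, 8.42, 8.46 and 8.90 at 2.5 h and 8.38, 8.64 and 8.96 at 5 h, above its 2.5 h level in 2 arms, with a late change of 0.07 ± 0.05 (adjusted p = 0.357) and a contrast of 2.50 ± 0.17. Ccn1, a matricellular protein, went from 11.79, 11.19 and 11.97 to 8.86, 8.45 and 9.61 and then to 8.51, 8.58 and 9.24. Its late changes of −0.34, 0.13 and −0.37 differed in sign between arms and were not called (adjusted p = 0.203). Hes1, a Notch target and repressor, was at 6.84, 6.62 and 6.73 at 2.5 h and 6.90, 6.91 and 6.84 at 5 h, under the filter value in every array, where a further loss may not show; this was not tested. Its late change of 0.15 ± 0.05 had an adjusted p of 0.0816.

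Histone mRNAs, which are made for S phase and lack a poly(A) tail when replication-dependent, held 5 of the 10 largest positive contrasts. H2bc3 was at 11.17, 11.13 and 10.40 at 0 h, 6.98, 6.88 and 6.74 at 2.5 h and 6.70, 6.69 and 6.68 at 5 h; its levels at 2.5 and 5 h lie under the filter value in every array. H1f5, a linker histone, was at 12.01, 12.03 and 11.21 at 0 h, 8.23, 8.33 and 7.96 at 2.5 h and 8.10, 8.36 and 8.07 at 5 h. Its early change of −3.57 was followed by a late change of 0.00 ± 0.05 (limma adjusted p = 0.952). These late levels lay above the filter value, which is not a background level. Whether the signal of H1f5 had reached a floor was not tested. H2ac15 fell in both phases, with changes of −3.08 and then −0.24 ± 0.05 (adjusted p = 0.0203, 0.0545 without the control arm and 0.0686 without the Cugbp1 arm). H2bc14 and H4c6 changed late by −0.24 ± 0.09 and −0.11 ± 0.10 (adjusted p = 0.0918 and 0.428), and both were positive under Mbnl1 siRNA and negative in the other arms. Of 15 replication-dependent histones tested, 11 had a positive called contrast, against 4.69% of all genes tested. Their median early change was −2.07 and their median late change −0.11, with arm medians of −0.16, −0.06 and 0.03. The late median was −0.02 without the Cugbp1 arm and −0.21 without the Mbnl1 arm. In the late phase alone 2 fell (H4c4 by 0.41 and H2ac15) and 1 rose (H4c9). These shares of 13.33% and 6.67% stand against 18.3% and 4.71% of all genes. H4c4 was not called without the control arm (adjusted p = 0.0812). The count of falls was 0 without the control arm, 2 without the Cugbp1 arm and 5 without the Mbnl1 arm. Histone genes are close copies of each other and may cross-hybridise, so the value of any 1 of them is uncertain.

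The largest negative contrasts belonged to RNAs that had gained on the rest in the first 2.5 h. Malat1, an abundant nuclear long noncoding RNA, went from 10.90, 10.48 and 11.65 at 0 h to 12.05, 11.97 and 12.52 and then stood at 12.03, 12.18 and 12.45. It gained 1.17 early and changed by 0.04 ± 0.06 late (limma adjusted p = 0.659), a contrast of −1.13 ± 0.24 (adjusted p = 0.0358). Lncpint, a noncoding RNA regulated by p53, had an early gain of 0.92 and a late change of 0.01 ± 0.07 (adjusted p = 0.911). Scarna17, a Cajal body RNA that guides modification of spliceosomal RNA, was at 9.60, 9.64 and 9.78 at 0 h, 10.87, 10.92 and 10.76 at 2.5 h and 11.11, 11.21 and 11.03 at 5 h. It gained in both phases, by 1.17 and then by 0.27 ± 0.03 (adjusted p = 0.00446), and the late gain was the smaller (−0.91 ± 0.11, adjusted p = 0.00292). Rsrp1, an arginine- and serine-rich protein, gained 0.80 and then changed by 0.04 ± 0.04. B930095G15Rik and Cep295nl gained 0.82 and 0.65 early and changed late by −0.06 ± 0.06 and −0.24 ± 0.09, with neither late change called (adjusted p = 0.475 and 0.112).

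**Figure D3:**
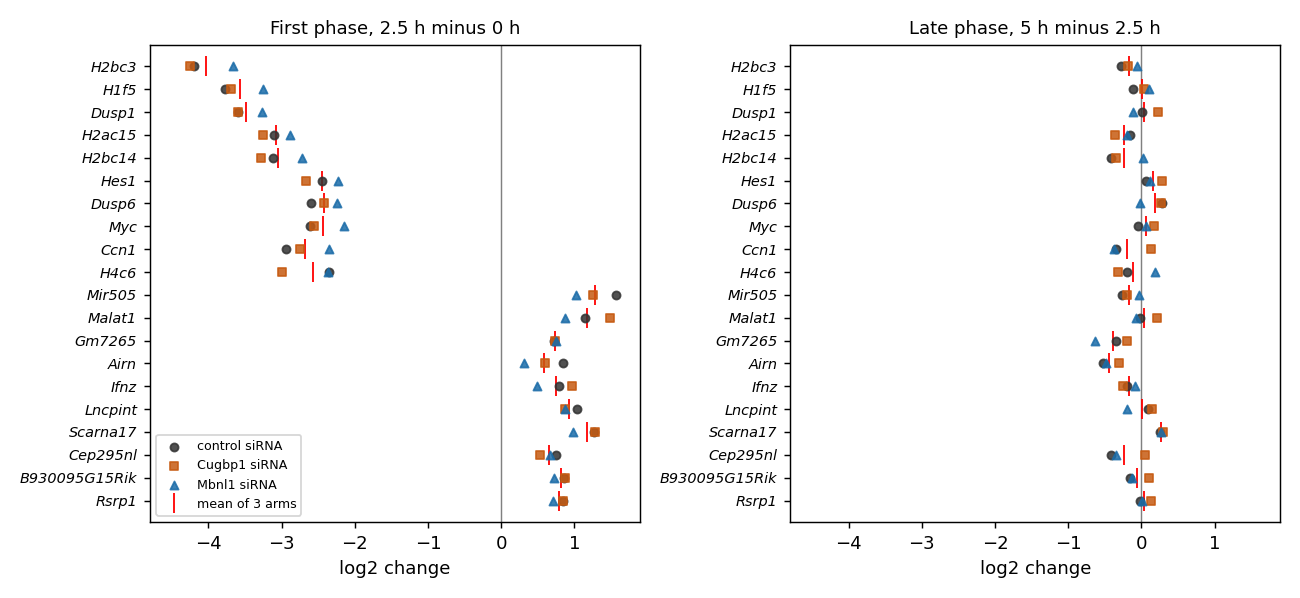
Log2 change in the first 2.5 h (left) and in the late phase (right), per siRNA arm with the mean of 3 arms in red, for the 10 largest positive and 10 largest negative called late minus early contrasts. The first 10 genes changed by −4.04 to −2.42 early and by −0.24 to 0.18 late, and the last 10 gained between 0.58 and 1.28 early and changed by −0.44 to 0.27 late; both panels share the 2.5 h arrays.

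A probe set of the microRNA gene Mir505 had the largest negative contrast. It was at 7.23, 7.53 and 7.22 at 0 h, 8.80, 8.79 and 8.25 at 2.5 h and 8.53, 8.59 and 8.22 at 5 h, an early gain of 1.28 followed by −0.16 ± 0.05 (limma adjusted p = 0.0737), with a contrast of −1.45 ± 0.15 (adjusted p = 0.00109). Of 34 microRNA genes tested 2 rose in the late phase, Mir139 by 0.23, 0.18 and 0.16 (adjusted p = 0.0167) and Mir692-1 by 0.21, 0.13 and 0.27 (adjusted p = 0.019), and 0 fell (1 at an unadjusted p under 0.05). The 5.88% that rose lies near the 4.71% of all genes tested. The count of rises was 0 without the control arm (adjusted p = 0.107 for Mir139 and 0.0966 for Mir692-1) and 1 without either of the others, and 1 fell without the Mbnl1 arm. Mir139 was also lost without the Cugbp1 arm (0.0613) and Mir692-1 without the Mbnl1 arm (0.064). On the scale of equal ribosomal protein medians the counts were 0 higher and 3 lower, and the median of 0.08 became −0.03. The mature products are shown of Mir139 and Mir692-1, the 2 with a called late change, and of Mir505, which had the largest negative contrast; the sequences are RefSeq's, 5′ to 3′, and capitals mark the seed (bases 2 to 8).
miR-139-5p: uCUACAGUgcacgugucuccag
miR-139-3p: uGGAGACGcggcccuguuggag
miR-692: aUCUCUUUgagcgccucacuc
miR-505-3p: cGUCAACAcuugcugguuuucu
miR-505-5p: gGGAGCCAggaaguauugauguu
No seed was shared. The array reports the gene's locus and does not separate the mature arms from their precursor or host transcript.

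Other noncoding RNAs were scattered in the late phase. Of 22 small nucleolar and Cajal body RNAs, which guide modification of ribosomal and spliceosomal RNA, 4 rose (Scarna17, Snord42b, Snora23 and Snord16a) and Snord15b fell by 0.24 (adjusted p = 0.108 without the control arm and 0.0727 without the Mbnl1 arm). The 18.18% that rose and 4.545% that fell stand against 4.71% and 18.3% of all genes. The median change of the 22 RNAs was 0.17, against −0.0016 over all genes, and 0.06 with equal ribosomal protein medians. By arm the medians were −0.0038, 0.18 and 0.33, lowest in the control arm and highest in the Mbnl1 arm, with 1 array pair each and no test. Snora44 changed by −0.36, 0.09 and 0.78 and Snord35a by −0.42, 0.00 and 0.55, examples in this order picked after their values were seen. Of the 4 called rises, that of Snord42b had the same order (0.25, 0.27 and 0.35). Those of Scarna17 (0.25, 0.29 and 0.27), Snora23 (0.14, 0.33 and 0.23) and Snord16a (0.18, 0.38 and 0.17) did not. The number called higher was 8 without the control arm, 2 without the Cugbp1 arm and 4 without the Mbnl1 arm. Of 14 long noncoding RNAs, 2 fell (Airn and Xist) and 2 rose: Gas5, the host of several small nucleolar RNAs, by 0.15 and Terc, the RNA of telomerase, by 0.15. The falls and the rises are each 14.29% of the 14, against 18.3% and 4.71% of all genes. Gas5 and Terc lost their call whichever arm was left out. Norad, a cytoplasmic RNA that binds Pumilio proteins, changed by 0.00 ± 0.05, and Rn7sk, which holds the elongation factor P-TEFb inactive, by 0.03 ± 0.04; neither was called (adjusted p = 0.996 and 0.558). These RNAs, made by different polymerases and often not polyadenylated, are measured by few probes each.

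The gene groups below are read against the background of 18.3% falls and 4.71% rises. Members other than the 2 largest called changes of a group were picked as examples after their values were seen. With equal ribosomal protein medians each of these groups had 0 or 1 rises and at least as many falls as reported. A number in brackets after a 0 is the count at an unadjusted limma p under 0.05. Of 59 short-lived and immediate early genes tested, 18 fell and 4 rose, with a median of −0.04. Cited2, Id2 and Rhob led the falls, followed by the Krüppel-like factor Klf4 (−0.70), the antiproliferative Btg1 (−0.66) and the survival factor Mcl1 (−0.44); the 4 rises were Egr1, Jun, Csrnp1 and Nr4a2. Their median early change was −1.14, and 45 of the 59 had a positive called late minus early contrast, against 4.69% of all genes tested. Without an arm the count of falls stayed at 13 to 18, and that of rises was 3 without the control arm, 2 without the Cugbp1 arm and 8 without the Mbnl1 arm.

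Signalling and lineage regulators followed. Of 42 regulators of the Wnt, TGF-beta and Notch pathways, 20 fell and 1 rose, with a median of −0.15. The Wnt receptor Fzd7 was at 9.46, 9.35 and 9.90 at 2.5 h and 8.69, 8.80 and 9.10 at 5 h (−0.71 ± 0.06, limma adjusted p = 0.00141), with no overlap between times. Smad3, a TGF-beta signal transducer, was at 9.70, 9.79 and 9.77 at 2.5 h and 9.15, 9.21 and 9.19 at 5 h and fell almost equally in the arms (−0.55, −0.58 and −0.58). Axin1, the scaffold of the beta-catenin destruction complex, fell by 0.56, and the receptors Notch1 and Notch2 by 0.29 and 0.32, while Notch3 rose by 0.16. The group's falls numbered 14, 16 and 16 without the control, Cugbp1 and Mbnl1 arms, and Notch3 lost its call whichever arm was left out. Of 24 myogenic regulators 6 fell and 0 (0) rose: Mrtfa, its relative Mrtfb (−0.43), the lineage factors Myf5 and Myod1, Mef2d (−0.36) and Eya1 (−0.34). The same number fell without each arm. Myf5 was at 9.51, 9.35 and 9.53 at 2.5 h and 8.88, 8.79 and 8.93 at 5 h (−0.60 ± 0.04, adjusted p = 0.00105) and Myod1 at 10.40, 10.48 and 9.82 at 2.5 h and 9.99, 10.12 and 9.30 at 5 h (−0.43 ± 0.05, adjusted p = 0.00249). Myod1 was lowest in the Mbnl1 arm at both times, so the times overlapped across arms, though each arm fell. The late minus early contrast was called for neither (0.09 ± 0.07 and −0.01 ± 0.09, adjusted p = 0.579 and 0.967). Cdh15, a cadherin of myoblasts, was not called (0.06 ± 0.04, adjusted p = 0.31).

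Among 14 circadian clock genes 3 fell and 0 (0) rose. The 21.43% that fell lies near the 18.31% of all genes tested. Arntl (BMAL1), the core activator, was at 7.88, 8.19 and 8.52 at 2.5 h and 7.34, 7.66 and 7.84 at 5 h (−0.58 ± 0.04, limma adjusted p = 0.00133), and the repressor Bhlhe41 was at 9.06, 8.91 and 8.09 at 2.5 h and 8.34, 8.43 and 7.78 at 5 h (−0.51 ± 0.08, adjusted p = 0.00734). Per1, a repressor, changed early by −0.88 and late by 0.03 ± 0.06 (adjusted p = 0.758). Without an arm, 2 to 4 clock genes fell. Of 26 p53 targets 8 fell and 0 (5) rose, led by the stress sensor Sesn1 (−0.57 ± 0.06, adjusted p = 0.00229) and the kinase Plk3 (−0.33 ± 0.06, adjusted p = 0.0173, 0.0919 without the control arm and 0.064 without the Cugbp1 arm). Their falls numbered 1 without the control arm and 5 without either other arm. A rise was called for 2 of them without the Mbnl1 arm and for 1 with a trended and robust variance prior. Mdm2, the ubiquitin ligase of p53, changed by −0.17 ± 0.05 and was not called (adjusted p = 0.0714).

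Cell cycle mRNAs were counted by the part of the cycle they serve. Of 61 G2/M and mitosis genes 26 fell and 0 (2) rose, with a median of −0.11. Aspm, a spindle pole protein, was at 9.54, 9.64 and 8.76 at 2.5 h and 8.60, 9.03 and 7.87 at 5 h (−0.81 ± 0.07, limma adjusted p = 0.00155), and Ccnf (cyclin F) at 9.38, 9.45 and 9.60 at 2.5 h and 8.52, 8.54 and 8.99 at 5 h (−0.80 ± 0.06, adjusted p = 0.00141). Both fell in each arm, and the times overlapped for Aspm, whose level was lowest under Mbnl1 siRNA. The kinases Wee1, Plk1 and Aurka fell by 0.77, 0.52 and 0.44. Without the control, Cugbp1 and Mbnl1 arms 16, 22 and 21 fell. Of 58 DNA replication and S phase genes 11 fell and 3 rose, close to the background, with a median of 0.0065 that became −0.1 with equal ribosomal protein medians. The licensing factor Cdt1 was at 9.87, 9.93 and 9.77 at 2.5 h and 9.05, 9.22 and 9.01 at 5 h (−0.76 ± 0.04, adjusted p = 0.000899), and the transcription factor E2f8 fell by 0.57. The rises were those of Rpa3, Rpa1 (0.15) and Dut (0.15), 1 of which was called without each arm; 6 fell without the control arm, 10 without the Cugbp1 arm and 9 without the Mbnl1 arm.

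mRNAs for making ribosomes and for the ribosome itself were counted apart. Of 76 genes of ribosome biogenesis and RNA polymerase I, 32 fell and 0 (1) rose, with a median of −0.14. Mphosph10 was at 8.04, 8.27 and 8.16 at 2.5 h and 7.43, 7.44 and 7.09 at 5 h (−0.84 ± 0.08, limma adjusted p = 0.00232), falling most under Mbnl1 siRNA, and Wdr43, a protein of the same processome, at 10.62, 10.82 and 10.44 at 2.5 h and 9.78, 10.13 and 9.70 at 5 h (−0.75 ± 0.04, adjusted p = 0.00101). The nucleolar GTPase Gnl3 fell by 0.65, the polymerase I factor Taf1b by 0.62 and the ribosomal RNA methyltransferase Nop2 by 0.55. Without the control, Cugbp1 and Mbnl1 arms 18, 28 and 26 fell. Of 56 cytosolic ribosomal proteins 0 (0) fell and 5 rose, with a median of 0.07 that became −0.04 on the scale built on their own medians. Rps21 rose by 0.22 ± 0.06 (adjusted p = 0.0458) and Rpl24 by 0.20 ± 0.05 (adjusted p = 0.0318). Without the control, Cugbp1 and Mbnl1 arms 2, 0 and 1 of them rose, with a trended and robust variance prior 29, and with equal ribosomal protein medians 0. Rps21 lost its call without the Cugbp1 or the Mbnl1 arm (adjusted p = 0.152 and 0.149), and Rpl24 without the control or the Cugbp1 arm (0.125 and 0.123). Of 74 mitochondrial ribosomal proteins 11 fell and 4 rose, with a median of 0.0002; Mrps30 changed by −0.38 ± 0.06 (adjusted p = 0.0106, 0.0563 without the control arm) and Mrps22 by −0.36 ± 0.04 (adjusted p = 0.00319). Without an arm 5 to 8 of these fell and 1 or 2 rose. Of 41 translation factors 3 fell and 3 rose, led by the exchange factor subunit Eif2b4 (−0.35) and the start-site factor Eif1a (−0.25, adjusted p = 0.0558 without the control arm); without an arm 1 or 2 fell and 0 or 1 rose. Of 20 aminoacyl-tRNA synthetases 0 changed by the limma test (1 higher and 2 lower at an unadjusted p under 0.05), with 1 called lower without the Mbnl1 arm, 4 lower with equal ribosomal protein medians and, with a trended and robust variance prior, 1 higher and 2 lower.

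Respiratory chain mRNAs rose in small steps, and their calls depended on the arms and the scale. Of 74 nuclear-encoded subunits 20 rose and 0 (0) fell (27.03% against 4.71% of all genes), with a median of 0.1 that became −0.0059 with equal ribosomal protein medians, where none was called (2 higher at an unadjusted p under 0.05). Ndufs5, of complex I, was at 9.26, 9.31 and 9.36 at 2.5 h and 9.46, 9.49 and 9.73 at 5 h (0.25 ± 0.05, limma adjusted p = 0.018, 0.0632 without the control arm), and Ndufa6 and Uqcr10, of complexes I and III, rose by 0.23 and 0.23; Uqcr10 was not called without the control arm (adjusted p = 0.136) or the Mbnl1 arm (0.102). The arm medians of 0.08, 0.1 and 0.11 were alike. The number called fell to 2, 6 and 3 without the control, Cugbp1 and Mbnl1 arms and was 45 with a trended and robust variance prior. Most other groups of housekeeping genes also stayed near the all-gene median, and their signs depended on the scale. Of 42 proteasome genes 2 fell and 1 rose (median 0.02, and −0.09 with equal ribosomal protein medians), among them Psmg2 and Psmd5 with −0.22 and −0.17; without an arm at most 1 fell and 0 rose. Of 15 glycolysis genes 2 fell, hexokinase Hk2 (−0.27) and the glucose transporter Slc2a1 (−0.19, adjusted p = 0.0885 without the control arm), and 1 rose (median 0.05, then −0.05); without the control arm 1 fell, and whichever arm was left out 0 rose. Of 52 lysosome genes 1 fell and 3 rose (median 0.06, then −0.05), with Ctsh and the glycosidase Idua (0.25, adjusted p = 0.0525 without the control arm) in front; 1, 2 and 3 rose without the control, Cugbp1 and Mbnl1 arms. Of 28 sarcomere and contraction genes 1 fell, Xirp1 (−0.30), and 1 rose, the cardiac actin Actc1 (0.27); the median of 0.04 became −0.07, and both calls were lost without the control arm (adjusted p = 0.116 and 0.0545), that of Xirp1 also without the Mbnl1 arm (0.0807) and that of Actc1 without the Cugbp1 arm (0.0582). Actb, the cytoskeletal actin often used as a reference, was at 14.32, 14.31 and 14.31 at 2.5 h and 14.32, 14.31 and 14.31 at 5 h and changed by 0.00 ± 0.03 (adjusted p = 0.993).

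**Figure D4:**
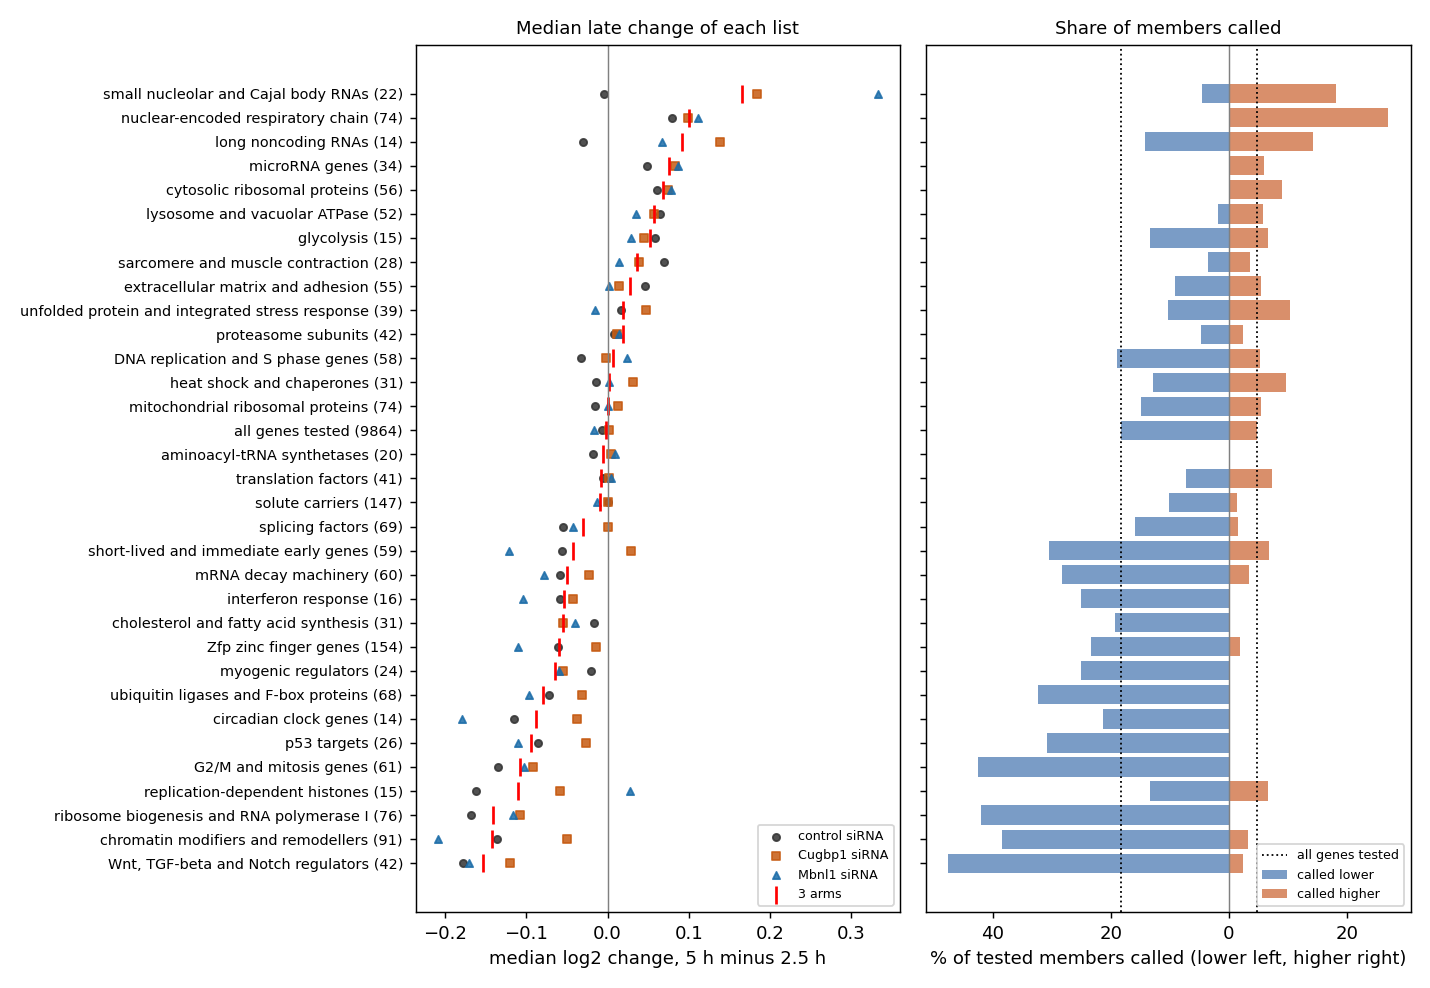
Left, the median log2 change from 2.5 to 5 h of each gene list (tested members in brackets) in the 3 siRNA arms and over the arms; right, the percentage of members called lower and higher by limma, with dotted lines at the shares over all genes tested. Wnt, TGF-beta and Notch regulators, chromatin modifiers, ribosome biogenesis, replication-dependent histones and mitosis genes have the 5 lowest medians. The histones among these have 13.33% of falls, under the share of all genes, and arm medians that differ in sign (−0.16, −0.06 and 0.03). The respiratory chain has 27.03% of rises in the fit plotted. That share drops to 2, 6 or 3 of 74 genes when an arm is left out and to 0 with equal ribosomal protein medians. On that scale all list medians above the all-gene median fall below 0, except the small nucleolar and Cajal body RNAs at 0.06.

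Lists of nuclear regulators differed in their share of falls, which was 18.31% over all genes tested. It was 38.46% for chromatin modifiers and remodellers, 23.38% for Zfp zinc finger genes and 15.94% for splicing factors. The share of the splicing factors thus lay below that of all genes. Of 91 chromatin modifiers and remodellers 35 fell and 3 rose, with a median of −0.14 and arm medians of −0.14, −0.05 and −0.21. The histone demethylase Kdm6a was at 9.39, 9.30 and 9.51 at 2.5 h and 8.86, 8.80 and 8.74 at 5 h (−0.60 ± 0.06, limma adjusted p = 0.00223), and Jarid2, a partner of Polycomb complex PRC2, changed by −0.49 ± 0.06 (adjusted p = 0.00442). The PRC2 subunit Eed, the SWI/SNF subunit Arid1a and the acetyltransferases Crebbp and Ep300 fell by 0.48, 0.47, 0.35 and 0.35. Without the control arm 21 fell, without the Cugbp1 arm 37 and without the Mbnl1 arm 28. Of 154 Zfp zinc finger genes 36 fell and 3 rose (median −0.06), with Zfp330 at −0.65 and Zfp637 at −0.52 the largest. Without the 3 arms in turn 14, 29 and 22 fell. Their median early change had been −0.43, and 57 of the 154 had a positive called late minus early contrast, against 4.69% of all genes tested. Of 69 splicing factors 11 fell and 1 rose (median −0.03), led by Prpf4 of the U4/U6 particle (−0.59) and Rbm5, a regulator of exon choice in apoptosis genes (−0.53). Without an arm 5 to 8 fell and 0 rose.

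The mRNAs of the decay machinery itself were also measured. Of 60 genes 17 fell and 2 rose, with a median of −0.05. Edc3, an enhancer of decapping, was at 9.33, 9.51 and 9.26 at 2.5 h and 8.94, 9.11 and 8.73 at 5 h (−0.44 ± 0.04, limma adjusted p = 0.00226). Cnot2, a scaffold subunit of the CCR4-NOT deadenylase, was at 10.68, 10.71 and 10.40 at 2.5 h and 10.28, 10.39 and 9.90 at 5 h (−0.40 ± 0.05, adjusted p = 0.00312). The times did not overlap for either. Tob1, which recruits that deadenylase, fell by 0.40, and the decapping co-activator Dcp1a by 0.35. Lsm3 and Lsm4, of the ring that binds deadenylated ends, rose by 0.13 and 0.15, and both lost their call whichever arm was left out. Without the control, Cugbp1 and Mbnl1 arms 6, 13 and 12 fell. The siRNA targets and their relatives moved little: of 7 tested, 0 (0) fell and 1 rose, Celf4 (0.22 ± 0.04, adjusted p = 0.0125, 0.085 without the control arm). Celf1 changed by −0.05 ± 0.04 and Mbnl1 by −0.10 ± 0.06 (adjusted p = 0.345 and 0.243), with −0.06, 0.01 and −0.26 for Mbnl1, lowest in the arm whose siRNA targets it.

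Protein quality and stress genes gave mixed counts. Of 68 ubiquitin ligases and F-box proteins 22 fell and 0 (1) rose (median −0.08), led by Rnf4, a ligase for SUMO-marked proteins (−0.58), and Fbxo38 (−0.53); 13, 21 and 14 fell without the control, Cugbp1 and Mbnl1 arms. Of 39 genes of the unfolded protein and integrated stress responses 4 fell and 4 rose. Xbp1, the transcription factor activated by IRE1, was at 10.71, 10.65 and 10.88 at 2.5 h and 9.94, 9.85 and 10.03 at 5 h (−0.81 ± 0.04, limma adjusted p = 0.000892), with no overlap, and the ligase Syvn1 and the kinase Eif2ak3 (PERK) fell by 0.51 and 0.47. The chaperones Hyou1 and Pdia6 rose by 0.19 and 0.15; all 4 rises lost their call whichever arm was left out, and 3, 6 and 3 genes fell without the control, Cugbp1 and Mbnl1 arms. Of 31 heat shock and chaperone genes 4 fell and 3 rose, with the co-chaperone Dnajb1 at −0.51 (adjusted p = 0.0088, 0.0526 without the control arm) and the transcription factor Hsf2 at −0.40; 2 or 3 fell and 0 or 1 rose without an arm. Of 16 interferon response genes 4 fell and 0 (1) rose, Irf1 by 0.25 to a 5 h mean of 6.81, under the filter, and Irf3 by 0.21; without the control, Cugbp1 and Mbnl1 arms 0, 3 and 2 fell. Of 31 genes of cholesterol and fatty acid synthesis 6 fell and 0 (2) rose, and the 19.35% that fell lies near the 18.31% of all genes tested. Among the falls were squalene epoxidase, Sqle, at 11.76, 11.69 and 12.06 at 2.5 h and 10.88, 10.88 and 11.45 at 5 h (−0.77 ± 0.06, limma adjusted p = 0.00129), and Insig1, which retains the SREBP activator in the endoplasmic reticulum (−0.32). Without the control arm 3 fell.

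For matrix and adhesion genes and for solute carriers the share of falls was below the background. Of 55 extracellular matrix and adhesion genes 5 fell and 3 rose (median 0.03, and −0.08 with equal ribosomal protein medians). Adamts1, a secreted protease, was at 7.88, 7.45 and 8.23 at 2.5 h and 7.66, 7.19 and 7.68 at 5 h (−0.34 ± 0.07, limma adjusted p = 0.0196). The metalloprotease Mmp10 was far higher under Mbnl1 siRNA, at 9.47, 9.16 and 11.83 at 2.5 h and 8.94, 8.85 and 11.71 at 5 h, and fell by 0.53, 0.30 and 0.13 (adjusted p = 0.0302, 0.0988 without the control arm and 0.0842 without the Cugbp1 arm). Without an arm 2, 2 and 4 of the group fell and 0, 0 and 2 rose. Of 147 solute carriers 15 fell and 2 rose (median −0.0089), with the amino acid transporter Slc38a2 at −0.40 and the mitochondrial carrier Slc25a44 at −0.36. Without an arm 8 to 12 fell and 0 to 2 rose. No mitochondrially encoded gene was tested.

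The arms, with 1 array pair each, were compared by their values only. A fall of 0.5 or more was read for 297 genes in the control arm, 151 in the Cugbp1 arm and 362 in the Mbnl1 arm, and for 94 genes in all 3. A rise of 0.5 or more was read for 1 gene in the control arm, 1 in the Cugbp1 arm and 9 in the Mbnl1 arm, and for 0 in all 3. The SD of the late change across genes was 0.18, 0.16 and 0.2. The Cugbp1 arm thus had the fewest falls of this size and the smallest SD. Its list medians for chromatin modifiers, short-lived genes and Zfp genes (−0.05, 0.03 and −0.01) were above those of the other arms. These lists were picked after their values were seen, and other lists went the other way. The Cugbp1 arm had the lowest median for cholesterol and fatty acid synthesis (−0.0544, against −0.0162 in the control arm and −0.0402 in the Mbnl1 arm). Whether the arms differ beyond the error of single arrays was not tested.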

How the data were processed

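Total RNA of C2C12 cells (100 ng per array) was hybridised to whole-transcript sense arrays from Affymetrix. Per the submitters' processing notes, the authors used Affymetrix Expression Console and its RMA method; their versions, like the array's genome build, were not given in the sources used here. What the authors deposited is linear RMA intensity, as its range shows, and it was converted to log2 before any test. Gene names came from the platform annotation, updated by gene ID through RefSeq (GRCm38.p6) for 21698 of the 21789 probe sets with 1 symbol; 1621 of 35556 probe sets had several symbols and 12146 none, and these were not used. Of 19938 named genes, 9864 had a mean log2 over the 9 arrays at or above 7.385 (an intensity of 167.1), which is percentile 50 over the named probe sets. The probe set with the highest mean stood for a gene with several.

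The 6 arrays at 2.5 and 5 h were fitted in R 4.3.3 with limma 3.58.1 (lmFit, then eBayes, two-sided) for the late change, with terms for siRNA and time; 2 residual degrees of freedom remain (prior 4.029). The siRNA term pairs the arrays, since the arrays of an arm had the same siRNA. The late minus early contrast was fitted on all 9 arrays with the same factors (4 residual degrees of freedom). A gene was called when its p, adjusted by Benjamini-Hochberg over the 9864 genes, was under 0.05. The fits were tested on simulated data. Named genes were the 15 largest called rises and 15 largest called falls with the same sign in each arm, the 2 largest called changes of each list, the 10 largest called contrasts in each direction, and a fixed set of 24 genes. Of that set, Myog, Fos and Per2 lay below the filter, and Cdkn1a and Gapdh were not analysed here because no probe set had their symbol alone. The members and lists were chosen with earlier results of these data known. The alternatives were the filter, the scale, the siRNA term, an offset, averaged probe sets, the variance prior, all 9 arrays in the fit, and each arm left out.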

Additional observations from a re-analysis of the deposited data

Results flagged for a closer look

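For 7 of the named genes the late change ran against the early change in all 3 arms, and both the late change and the late minus early contrast passed the limma test. The contrast was 2.19 for Egr1 and 2.15 for Jun, the 2 immediate early transcription factors, and 1.73 for Csrnp1. These genes fell in the first 2.5 h and rose in the late phase. It was −1.02 for Airn, −1.13 for Gm7265, −0.93 for Ifnz and −0.35 for Xist, which rose in the first 2.5 h and fell late. Both phases use the 2.5 h arrays, so an error shared by those 3 arrays would give opposite signs; its part in these values was not tested. The contrast of Xist did not pass with equal ribosomal protein medians (adjusted p = 0.138), while those of the other 6 did. Without the control arm only 3 negative contrasts were called over all genes tested. No group had the 4 samples needed to look for a single array apart from the others.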

How the results depend on the processing

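The counts depended on several choices. Of the late changes, 465 rises and 1806 falls were called in the fit reported. Without the siRNA term (no replicate block) 0 genes were called higher (130 at an unadjusted p under 0.05) and 60 lower (1003), and the late minus early contrast was called positive for 114 genes and negative for 4. Without the filter, where 19938 genes were tested, 27 rose and 793 fell, and 30 contrasts were negative; with the 75th percentile as the filter 881 fell and 57 and 14 contrasts were positive and negative. After rescaling to equal medians of ribosomal proteins 19 genes rose and 3476 fell, and 28 contrasts were negative. A trended and robust variance prior gave 949 rises and 82 negative contrasts. Leaving out an arm gave 64 to 155 rises, 907 to 1412 falls, 201 to 418 positive and 3 to 33 negative contrasts. The fits on 9 arrays, with the filter on 6 arrays, with an offset of 50 and with averaged probe sets gave counts within 1.5 times those reported. None of the 114 named genes, 90 of them called, changed sign while called, and 27 kept their side of the threshold under every alternative that gave a value. The 15 largest falls kept their call without each arm, 14 of them without the filter and 5 without the siRNA term; of the 15 largest rises, 10, 12 and 14 kept it without the control, Cugbp1 and Mbnl1 arms, 12 with equal ribosomal protein medians, 6 without the filter and 0 without the siRNA term. With 1 array per siRNA and time and levels near the filter value, small changes are limited by the number of arrays and by signal over background.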
